A study of Mus musculus with 6 samples.

Results

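The comparison described here sets small RNA from cells treated with CHIR99021 against small RNA from cells treated with BIO, across every microRNA arm counted. Both compounds inhibit glycogen synthase kinase 3 (GSK3). All cells were J1 mouse embryonic stem cells, adapted to gelatin and grown in serum replacement medium with leukemia inhibitory factor. CHIR99021 was given at 3 µM and BIO at 1 µM, each for 24 h, so compound and dose cannot be told apart. The other libraries of the study were retinoic acid (RA, 1 µM), vitamin C (VC, 50 µg/ml), and the vehicles DMSO and ddH2O (1 µL each), also at 24 h. Each of the 6 groups is 1 library with no replicate, so no p-value is given for any difference between them. For BIO the submitters report that the raw reads are lost, and its deposited counts were used as they stand. Of 1262 arms with a tag in any library, 1058 had one in the CHIR99021 or BIO library, and 479 reached 10 counts per 1000000 microRNA tags (CPM) in the higher of those libraries and were compared.

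GSK3 belongs to the complex that marks β-catenin for destruction, and its inhibition stabilises β-catenin, the effector of Wnt signalling. In mouse embryonic stem cells GSK3 inhibitors are used to help hold cells in the undifferentiated state. A microRNA hairpin is cut into a 5p and a 3p arm, and bases 2 to 8 of the arm that is kept, its seed, largely decide which messenger RNAs it represses.

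The deposited counts held 23758363 tags for CHIR99021 and 22258922 for BIO. MicroRNA tags were 6.01% of the CHIR99021 library (1428521 tags) and 9.43% of the BIO library (2099668 tags), against 11.4% in DMSO and 8.59% in ddH2O. Tags of 18 and 19 bases were 15.8% of all CHIR99021 tags and 8.01% of all BIO tags, against 10.9% in DMSO and 10.99% in ddH2O. Tags of 27 to 44 bases made up 10.1% of the CHIR99021 library and 20.4% of the BIO library. With 3 counts as the floor, an arm without tags could still stand at 2.10 CPM in CHIR99021 and 1.43 CPM in BIO. Ratios below carry a 95% exact conditional binomial (Clopper-Pearson) interval. Such intervals and floors cover counting error only: PCR copies were not marked by molecular identifiers, and differences between cultures and preparations are not in them.

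The mature sequences below, from RefSeq on GRCm38.p6, belong to arms called at 100 CPM or more that the results below describe, with capitals marking the seed. The first group was higher in the CHIR99021 library. MiR-211-3p stands beside its partner arm, and miR-204-5p is shown because it has the seed of miR-211-5p.
miR-211-5p: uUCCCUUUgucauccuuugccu
miR-211-3p: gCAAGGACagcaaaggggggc
miR-204-5p: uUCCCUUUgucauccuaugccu
miR-331-3p: gCCCCUGGgccuauccuagaa
miR-10a-5p: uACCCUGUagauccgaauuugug
miR-341-3p: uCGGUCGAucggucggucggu

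The second group was lower in the CHIR99021 library. MiR-485-3p, miR-758-5p and miR-329-3p come from one imprinted cluster, and both arms of Mir92b are given.
miR-485-3p: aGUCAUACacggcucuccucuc
miR-758-5p: uGGUUGACcagagagcacacg
miR-329-3p: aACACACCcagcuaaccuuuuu
miR-92b-5p: aGGGACGGgacguggugcaguguu
miR-92b-3p: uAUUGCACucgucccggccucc
miR-181a-5p: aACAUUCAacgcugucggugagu

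An arm was called when the libraries differed at least 2-fold, its interval did not include 1, and at least 10 CPM was reached in one of them. In the CHIR99021 library 35 of 479 arms were called higher than in BIO (7.31%) and 31 lower (6.47%), 66 in all (13.8%). The same rule between the vehicles, ddH2O over DMSO, called 24 of 484 arms higher (4.96%) and 11 lower (2.27%), 35 in all (7.23%). The vehicle count shows how far the 2 vehicle libraries, which differ in solvent, lay apart, and the inhibitor libraries had more calls than that. Among all deposited tags the vehicles had near-equal shares of 18 and 19 bases while CHIR99021 and BIO did not, as given above. Among exact microRNA tags, however, both pairs differed. There these lengths were 3.33% in CHIR99021 and 1.67% in BIO, against 4.95% in DMSO and 3.39% in ddH2O. Among arms at 100 CPM or more, 76.2% of 244 lay within 1.5-fold of each other in CHIR99021 and BIO, with an SD of the log2 ratio of 0.70. Between ddH2O and DMSO it was 81.5% of 254 arms, with an SD of 0.48. Arms at least 3-fold apart were also more numerous, 14 higher and 7 lower in CHIR99021 than in BIO, against 4 higher and 2 lower in ddH2O than in DMSO. Of the 66 calls 2 were also calls between the vehicles, miR-10a-5p and miR-1a-3p, which is 3.03% of the CHIR99021 against BIO calls and 5.71% of the vehicle calls.

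These ratios are relative to the microRNA tags of each library. Scaled to all deposited tags instead, the log2 ratios shift by −0.65, and 8 arms were called higher and 143 lower in CHIR99021 than in BIO. The split into higher and lower arms therefore depends on that choice. With TMM scaling it was 31 higher and 36 lower.

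**Figure D1:**
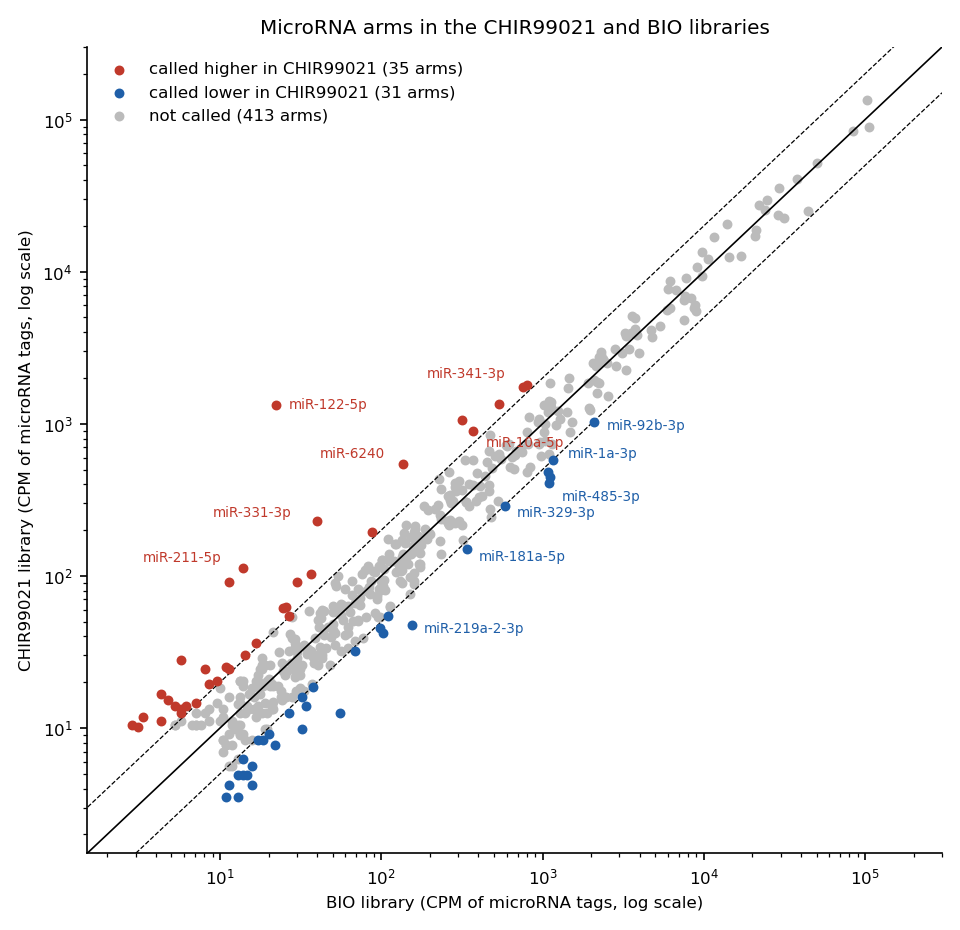
Level of each of the 479 arms in the CHIR99021 library (y axis) against the BIO library (x axis), in CPM of microRNA tags on log scales. The solid line marks equal levels and the dashed lines a 2-fold difference; miR-122-5p, at 1324 CPM in CHIR99021 and 22.4 CPM in BIO, lies farthest from the line, and the most abundant arms lie between the dashed lines.

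The arm with the largest ratio was miR-122-5p, a microRNA that makes up most of the microRNA of hepatocytes. It had 1324 CPM in the CHIR99021 library and 22.4 CPM in the BIO library, against 54.9 in RA, 30.7 in VC, 25.5 in DMSO and 33.2 in ddH2O. CHIR99021 thus stood alone above 5 libraries that had between 22.4 and 54.9 CPM. It was 59.2-fold higher in CHIR99021 than in BIO (interval 44.3 to 80.8), from 1892 tags in CHIR99021 and 47 in BIO. Its partner arm miR-122-3p, named here after its values were seen, had 1 tag in CHIR99021 and 0 in each other library. In bulk RNA a change in the number of cells of a type and a change in RNA per cell cannot be told apart. The other liver and endoderm arms compared had log2 ratios below 0. MiR-192-5p, which is abundant in liver and gut, had 4124 CPM in CHIR99021 and 4682 CPM in BIO. The copy of miR-194-5p from Mir194-2 was called lower, at 18.6 CPM in CHIR99021 against 37.6 CPM in BIO. Of the 15 arms on that list, 6 were at 0 in CHIR99021 and 7 in BIO, and of the 5 compared 1 was called higher and 1 lower. With 5 arms each call is 20%, against 7.31% higher and 6.47% lower over all arms. The list summed to 5511 CPM in CHIR99021 and 4793 CPM in BIO, against 5224 in DMSO and 6141 in ddH2O, and its part in the miR-122-5p difference was not tested.

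The 3′ ends of miR-122-5p tags also differed. In the CHIR99021 library 30.4% of them were 21 bases long, 44.4% were 22 and 24.4% were 23, of 1892 tags. In the BIO library the shares were 6.38%, 80.9% and 10.6%, of 47 tags. The 22-base share was between 70.0% and 80.9% in the 5 libraries other than CHIR99021, although each of them rests on 40 to 58 tags. An added A outside the hairpin sequence followed 15.0% of the miR-122-5p tags in CHIR99021 (interval 13.5 to 16.5%) and 7.84% in BIO (2.18 to 18.9%), and these intervals overlap.

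MiR-211 lies in an intron of Trpm1, the gene of a melanocyte and retinal bipolar cell channel, with its 5p arm at chr7:64205831-64205852 (+ strand, GRCm38). MiR-211-5p had 112 CPM in CHIR99021 and 13.8 CPM in BIO, against 1.37 in RA, 1.59 in VC, 3.25 in DMSO and 0.572 in ddH2O. It was 8.11-fold higher in CHIR99021 than in BIO (5.43 to 12.5). BIO in turn lay above both vehicles, 4.25-fold above DMSO (1.82 to 11.5), where 7 tags were counted. Against the single tag in ddH2O the ratio of BIO was 24.2 (4.0 to 986) and that of CHIR99021 was 196 (34.7 to 7783). The comparisons of CHIR99021 and of BIO with a vehicle share that vehicle library.

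Its other arm, miR-211-3p, was named after its values were seen, since it lies just under 100 CPM. It had 91.0 CPM in CHIR99021 and 11.4 CPM in BIO, against 0 in RA, 2.12 in VC, 0.928 in DMSO and 1.72 in ddH2O. As for the 5p arm, CHIR99021 came first and BIO next, and the rest had few tags or none, with 2 in DMSO and 3 in ddH2O. The 3p arm was 7.96-fold higher in CHIR99021 than in BIO (5.12 to 12.9), close to the 8.11-fold of the 5p arm. MiR-204-5p, which has the same seed as miR-211-5p and lies in an intron of Trpm3, reached only 6.30 CPM in CHIR99021 and 1.43 CPM in BIO, from 9 and 3 tags.

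MiR-331-3p, from an exon of Vezt on chromosome 10, had 228 CPM in CHIR99021 and 40.0 CPM in BIO, against 53.5 in RA, 652 in VC, 60.3 in DMSO and 90.9 in ddH2O. CHIR99021 lay above both vehicles and BIO below both, while VC was higher than either. The ratio of CHIR99021 to BIO was 5.70-fold (4.48 to 7.34), and its partner miR-331-5p was not called, at 16.1 CPM in CHIR99021 and 11.4 CPM in BIO. Tags with an added base weighed differently on the 2 libraries. Of exact, A-tailed and T-tailed miR-331-3p tags together, 4.44% in CHIR99021 and 22.5% in BIO carried an added A, and 10.4% in CHIR99021 and 30.3% in BIO an added T. With such ends counted the log2 ratio was 1.42, against 2.51 without them, and the arm was still called.

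MicroRNA arms from the Hox clusters, which pattern the body axis, followed. MiR-10a-5p had 902 CPM in CHIR99021 and 370 CPM in BIO, against 57226 in RA, 997 in VC, 484 in DMSO and 1158 in ddH2O. It was 2.44-fold higher in CHIR99021 than in BIO (2.23 to 2.67), but the vehicles spanned a similar distance and CHIR99021 fell between them. MiR-10b-5p, from an intron shared by Hoxd3 and Hoxd4, had 28.0 CPM in CHIR99021 and 5.72 CPM in BIO, against 6.96 in DMSO and 6.86 in ddH2O. It was 4.90-fold higher in CHIR99021 (2.52 to 10.3), from 40 tags in CHIR99021 and 12 in BIO. MiR-196a-5p, at 693 CPM in CHIR99021 and 739 CPM in BIO, was not called. Of 9 Hox arms with tags 4 were compared, and of these 2 were called higher (50%, against 7.31% of all arms) and 0 lower. MiR-10b-5p reached 10 CPM in CHIR99021 but not in BIO. The median log2 ratio of the 4 was 0.60, which is −0.05 when counts are scaled to all deposited tags.

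The remaining calls at 100 CPM or more that were higher in CHIR99021 were miR-6240, miR-6240-3p, miR-6236-5p, miR-690, miR-378c, miR-3470b and miR-341-3p. MiR-6240 had 545 CPM in CHIR99021 and 136 CPM in BIO, 4.0-fold higher (3.49 to 4.60), and 99.5% of its tags in CHIR99021 and 99.0% in BIO were 18 or 19 bases long. MiR-6236-5p had 1347 CPM in CHIR99021 and 538 CPM in BIO, and 51.7% of its tags in CHIR99021 and 46.9% in BIO were of that length. MiR-6240-3p had 1063 CPM in CHIR99021 and 316 CPM in BIO, and miR-690 had 1810 CPM in CHIR99021 and 805 CPM in BIO. Beyond the genes named under processing, those hairpins were not checked against nuclear large-subunit ribosomal RNA or nuclear tRNA, so their tags may not all be microRNA. MiR-3470b had 193.9 CPM in CHIR99021 and 88.1 CPM in BIO. MiR-378c had 103.5 CPM in CHIR99021 and 36.4 CPM in BIO, all of it from tags that also match other arms, so no value is left for it without them.

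**Figure D2:**
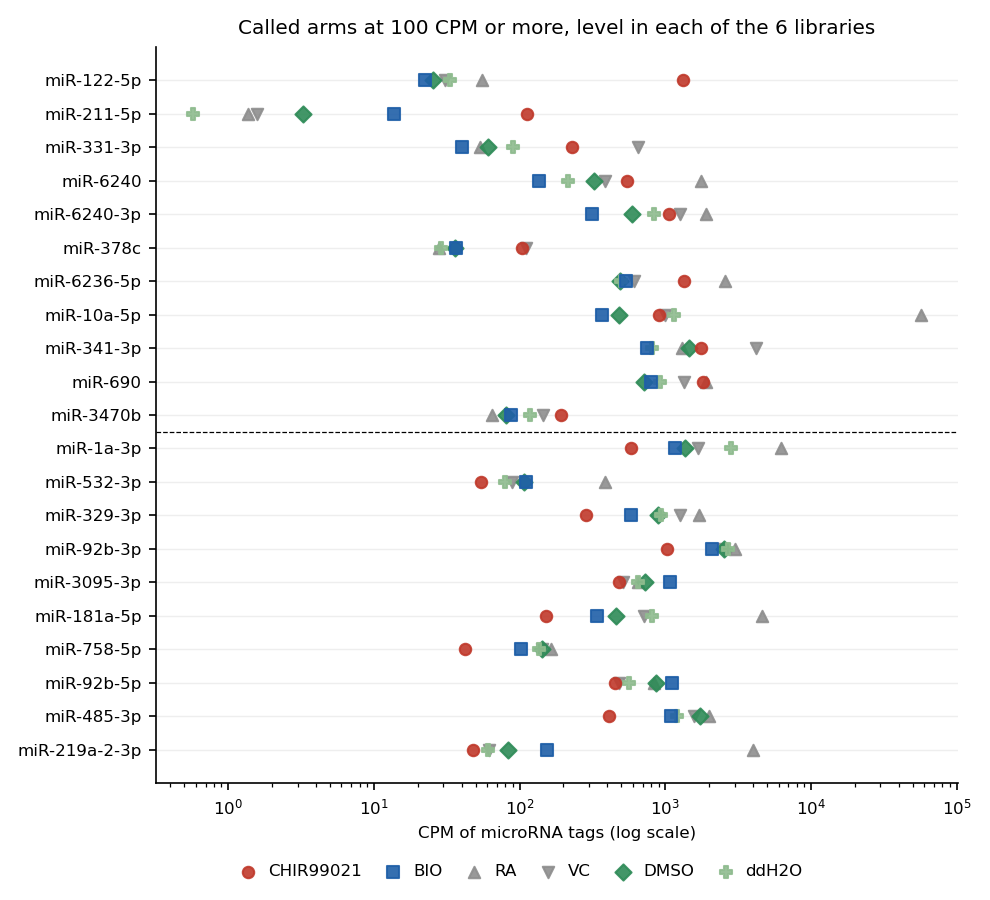
Level in CPM of microRNA tags (x axis, log scale) of the 21 called arms at 100 CPM or more, in each of the 6 libraries, with arms above the dashed line called higher and arms below it called lower in CHIR99021 than in BIO. The red points of CHIR99021 stand alone at the right for miR-122-5p and miR-211-5p, and at the left end for each of the 10 arms called lower.

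Higher calls were most frequent among arms with short tags. Where the most abundant tag had 18 to 20 bases, 13 of 44 arms were called higher (29.5%) and 1 lower, with a median log2 ratio of 0.54. Where it had 22 bases, 12 of 213 were called higher (5.63%) and 15 lower, and where it had 23 to 26 bases, 4 were higher (2.78%) and 14 lower. The log2 ratio and this length had a Spearman rho of −0.27 over the 479 arms, which share 2 libraries that differ in their share of short tags, as given above. Among arms with a most abundant tag of 21 bases or more, an alternative chosen after the data were seen, 22 of 435 were called higher and 30 lower. The part of tag length in the calls was not tested. GC content of the most abundant tag had a rho of −0.02 with the log2 ratio.

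The arms lower in CHIR99021 than in BIO included miR-485-3p, which lies in an exon of Mirg in the Dlk1-Dio3 cluster. It had 410 CPM in CHIR99021 and 1094 CPM in BIO, against 2009 in RA, 1570 in VC, 1734 in DMSO and 1206 in ddH2O. CHIR99021 was the lowest of the 6 libraries and BIO lay just under the lower vehicle. The arm was 2.67-fold lower in CHIR99021 than in BIO (2.43 to 2.92). Set against DMSO, which both comparisons share, it was 4.23-fold lower in CHIR99021 (3.87 to 4.62) and 1.59-fold lower in BIO (1.51 to 1.67).

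MiR-181a-5p, abundant in lymphocytes and in differentiating cells, had 151 CPM in CHIR99021 and 338 CPM in BIO, against 4620 in RA, 710 in VC, 460 in DMSO and 806 in ddH2O. Again CHIR99021 was the lowest library and BIO the next lowest. It was 2.24-fold lower in CHIR99021 than in BIO (1.92 to 2.62), and the log2 ratio was −1.16, against −0.66 and no call with tags of 22 to 24 bases, which kept 40.3% of its tags in CHIR99021 and 30.1% in BIO. MiR-181b-5p, from the same hairpin clusters, had 242 CPM in CHIR99021 and 481 CPM in BIO, a 1.99-fold difference (1.76 to 2.25) just under the 2-fold limit. MiR-181d-5p and miR-181c-5p, which share the seed ACAUUCA with them but come from another cluster, did not follow. MiR-181d-5p had 25484 CPM in CHIR99021 and 23841 CPM in BIO, and miR-181c-5p had 1320 CPM in CHIR99021 and 1028 CPM in BIO.

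Both arms of Mir92b were called. MiR-92b-3p had 1033 CPM in CHIR99021 and 2089 CPM in BIO, against 3017 in RA, 2534 in VC, 2522 in DMSO and 2714 in ddH2O. It was 2.02-fold lower in CHIR99021 than in BIO (1.91 to 2.15), and CHIR99021 was the lowest of the 6 libraries. With untemplated 3′ ends counted the log2 ratio was −0.99, against −1.02, which is just short of the 2-fold limit. MiR-92b-5p had 449 CPM in CHIR99021 and 1109 CPM in BIO, 2.47-fold lower (2.26 to 2.70), against 867 in DMSO and 566 in ddH2O, so BIO lay above both vehicles and CHIR99021 below both.

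MiR-92b-3p shares its seed with 4 other arms compared, none of which was called. Their sequences, from RefSeq, are set out to show where the letters match.
miR-92a-3p: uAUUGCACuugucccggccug
miR-25-3p: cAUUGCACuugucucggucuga
miR-363-3p: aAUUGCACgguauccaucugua
miR-32-5p: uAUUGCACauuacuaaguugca
MiR-92a-3p, of the miR-17-92 cluster and its X-linked copy, had 10777 CPM in CHIR99021 and 9026 CPM in BIO. MiR-25-3p, within Mcm7, had 40479 CPM in CHIR99021 and 38025 CPM in BIO. MiR-363-3p had 1192 CPM in CHIR99021 and 1083 CPM in BIO, and miR-32-5p had 162 CPM in CHIR99021 and 121 CPM in BIO. Summed over the seed, the 5 arms held 53643 CPM in CHIR99021 and 50343 CPM in BIO, against 64584 in DMSO and 68444 in ddH2O, so the summed seed family was slightly higher in CHIR99021 than in BIO on this scale.

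MiR-219a-2-3p and the copy of miR-219a-5p from the same hairpin, both neural microRNAs linked to oligodendrocytes, were also called lower. That copy reached 18.6 CPM at most and had a log2 ratio of −1.10. The copy of miR-219a-5p from Mir219a-1 stood at −0.67 and its partner miR-219a-1-3p at −0.22, neither called. MiR-219a-2-3p had 47.6 CPM in CHIR99021 and 154 CPM in BIO, against 4025 in RA, 61.4 in VC, 83.5 in DMSO and 60.6 in ddH2O. Here BIO lay above both vehicles and CHIR99021 a little below them. The ratio was 3.24-fold lower in CHIR99021 than in BIO (2.49 to 4.28). From the neural list, the neuronal miR-124-3p had 3772 CPM in CHIR99021 and 3310 CPM in BIO and miR-128-3p had 6727 CPM in CHIR99021 and 8388 CPM in BIO, neither called. Of 10 neural arms compared 0 were called higher and 2 lower (20%, against 6.47% of all arms), both from Mir219a-2. The median log2 ratio of the 10 was −0.33.

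MiR-1a-3p, a muscle and heart microRNA, had 580 CPM in CHIR99021 and 1161 CPM in BIO, against 6259 in RA, 1676 in VC, 1376 in DMSO and 2818 in ddH2O. It was 2.00-fold lower in CHIR99021 than in BIO (1.85 to 2.17), at the limit for a call, and it was called higher in ddH2O than in DMSO as well. MiR-499-5p, from an intron of Myh7b, pointed the other way, at 480 CPM in CHIR99021 and 264 CPM in BIO. The other arms called lower at 100 CPM or more were miR-3095-3p, miR-532-3p, miR-758-5p and miR-329-3p, at 2.02-fold to 2.43-fold.

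Of the 35 arms called higher in CHIR99021, 32 had CHIR99021 above both vehicles, and for 18 of these BIO lay below both, for 7 above both and for 7 between them. Of the 31 arms called lower, 30 had CHIR99021 below both vehicles, and for 12 of these BIO lay above both, for 12 below both and for 6 between them. Most arms without a call also had CHIR99021 beyond both vehicles, 313 of 413, and choosing arms by their difference between CHIR99021 and BIO favours extreme values, so these counts are a description. The 2 vehicles are 1 library each, so this range is that of 2 libraries.

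**Figure D3:**
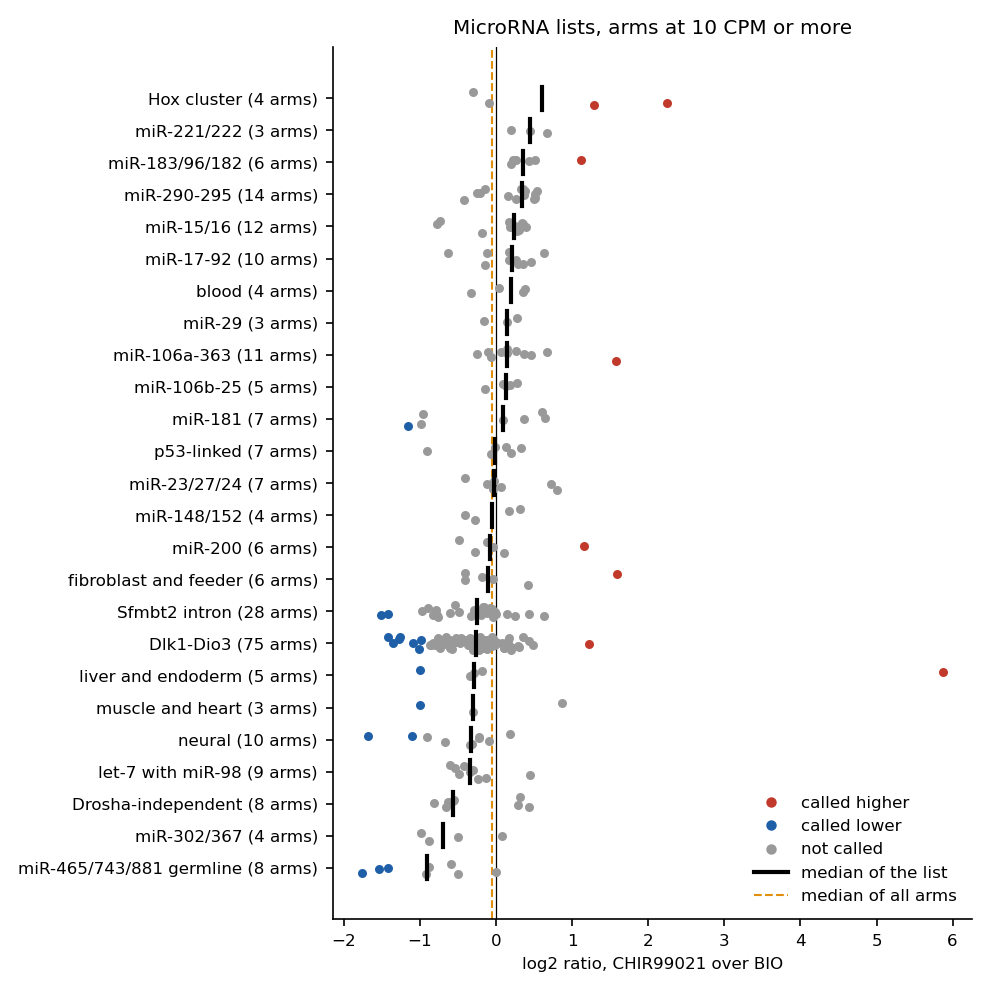
Log2 ratio of CHIR99021 over BIO (x axis, pseudocount 0.5) for each arm of the lists with at least 3 arms compared, sorted by their medians (black bars). Red and blue points are called arms; the miR-290 cluster arms lie near 0 with a median of 0.34, and the Dlk1-Dio3 arms lie mostly left of 0 with a median of −0.27.

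The miR-290 cluster, whose AAGUGCU seed arms speed the cell cycle of mouse embryonic stem cells, was the most abundant group in both libraries. Its arms summed to 342474 CPM in CHIR99021 and 307622 CPM in BIO, against 291811 in DMSO and 272761 in ddH2O. None of the 14 arms compared was called, 10 lay above 0, and the median log2 ratio was 0.34 against −0.05 over all arms. Scaled to all deposited tags this median turns to −0.31. The sequences of some of its 3p arms, all of them above 0, show the shared seed of 3 of them and the different seed of miR-293-3p.
miR-291a-3p: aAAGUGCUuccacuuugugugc
miR-294-3p: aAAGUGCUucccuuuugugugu
miR-295-3p: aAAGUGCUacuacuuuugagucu
miR-293-3p: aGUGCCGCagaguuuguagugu

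MiR-293-3p, the most abundant arm in CHIR99021, had 134978 CPM in CHIR99021 and 103384 CPM in BIO, against 101118 in DMSO and 101958 in ddH2O. BIO was level with the vehicles and CHIR99021 was 1.31-fold above BIO (1.30 to 1.31). MiR-294-3p had 29536 CPM in CHIR99021 and 24724 CPM in BIO, miR-295-3p had 27635 CPM in CHIR99021 and 22068 CPM in BIO, and miR-291a-3p had 5152 CPM in CHIR99021 and 3602 CPM in BIO. MiR-290a-5p went the other way, with 88706 CPM in CHIR99021 and 105084 CPM in BIO, against 96000 in DMSO and 76979 in ddH2O. So did miR-292-3p, miR-290a-3p and miR-294-5p, at log2 ratios of −0.21, −0.15 and −0.42, and miR-292-3p reached 14380 CPM in the higher library. The 3p arms summed to 210542 CPM in CHIR99021 and 168802 CPM in BIO, and the 5p arms to 131932 CPM in CHIR99021 and 138820 CPM in BIO. MiR-290a-5p made up most of the 5p sum in both libraries. By arm the sides were alike: on each, 5 of 7 arms compared lay above 0, with a median of 0.32 for 3p and 0.36 for 5p.

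The related miR-302 cluster, which shares the AAGUGCU seed and rises in the early post-implantation embryo, was scarce. It summed to 144.9 CPM in CHIR99021 and 254 CPM in BIO, against 122 in DMSO and 95.5 in ddH2O, so BIO was the highest of these 4. None of 4 arms compared was called and 3 lay below 0, with a median of −0.69. MiR-302a-5p came closest, at 75.6 CPM in CHIR99021 and 150 CPM in BIO.

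Let-7, which accumulates as stem cells differentiate and opposes the pluripotent state, was lower in CHIR99021 without a call. Together with miR-98 it summed to 72611 CPM in CHIR99021 and 97705 CPM in BIO, against 86932 in DMSO and 82116 in ddH2O. Thus CHIR99021 lay below both vehicles and BIO above both, and the sum was 1.35-fold lower in CHIR99021 than in BIO (1.34 to 1.36). Of 9 arms compared 8 lay below 0, the median was −0.34, and 0 were called. The 3 most abundant members, which share the seed, are shown.
let-7a-5p: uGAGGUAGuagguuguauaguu
let-7c-5p: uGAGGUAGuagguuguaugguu
let-7f-5p: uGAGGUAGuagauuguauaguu
Let-7f-5p had 22394 CPM in CHIR99021 and 31445 CPM in BIO, against 24426 in DMSO and 24544 in ddH2O, so BIO stood apart from the vehicles more than CHIR99021 did. Let-7c-5p had 23426 CPM in CHIR99021 and 29012 CPM in BIO, and let-7a-5p 12701 CPM in CHIR99021 and 17000 CPM in BIO. Let-7e-5p showed the lowest ratio of the list, at 5742 CPM in CHIR99021 and 8709 CPM in BIO, and miR-98-5p, at 25.9 CPM in CHIR99021 and 19.1 CPM in BIO, was the one arm above 0.

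The Dlk1-Dio3 cluster on chromosome 12 is imprinted and its microRNAs come from the maternal chromosome, where their activity has been linked to the developmental potency of mouse stem cells. Its arms summed to 43222 CPM in CHIR99021 and 52168 CPM in BIO, against 78967 in DMSO and 72047 in ddH2O. Both inhibitor libraries lay below both vehicles, CHIR99021 farther, and the sum was 1.21-fold lower in CHIR99021 than in BIO (1.20 to 1.22). Of 75 arms compared 60 lay below 0 (80.0%), with a median log2 ratio of −0.27, against 258 of all 479 arms (53.9%) and −0.05. Of the 75, 7 were called lower (9.33%, against 6.47% of all arms) and 1 higher, so the share of lower calls was near that over all arms. Of 109 arms of the cluster with tags, 14 were at 0 in CHIR99021 and 10 in BIO.

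Of the arms called lower, miR-758-5p, miR-329-3p, miR-495-5p and miR-667-3p are among 30 arms between Rian and Mirg, and miR-485-3p, miR-377-3p and miR-3072-5p among 22 within Mirg. The 19 arms before Rian held no call but were no higher as a group, with a median log2 ratio of −0.29 and a sum 1.35-fold lower in CHIR99021 than in BIO. The median was −0.29 and the sum 1.22-fold lower between Rian and Mirg, and −0.18 and 1.17-fold lower within Mirg. MiR-329-3p had 288 CPM in CHIR99021 and 582 CPM in BIO, against 1706 in RA, 1271 in VC, 889 in DMSO and 929 in ddH2O. MiR-758-5p had 42.0 CPM in CHIR99021 and 102 CPM in BIO, against 142 in DMSO and 136 in ddH2O. For both, CHIR99021 was the lowest library and BIO the next lowest. Against DMSO miR-329-3p was 3.09-fold lower in CHIR99021 (2.78 to 3.45) and 1.53-fold lower in BIO (1.42 to 1.64). The abundant miR-433-3p, with 4799 CPM in CHIR99021 and 7588 CPM in BIO, was lower without a call, and miR-127-3p had 4379 CPM in CHIR99021 and 5371 CPM in BIO. MiR-382-5p was one of 15 arms above 0, at 3982 CPM in CHIR99021 and 3530 CPM in BIO.

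The single higher call, miR-341-3p in an intron of Rian, had 1754 CPM in CHIR99021 and 755 CPM in BIO, against 1296 in RA, 4192 in VC, 1456 in DMSO and 814 in ddH2O. It was 2.32-fold higher in CHIR99021 than in BIO (2.18 to 2.47), with CHIR99021 nearer to DMSO and BIO nearer to ddH2O. Most of its tags carried added bases. Of exact, A-tailed and T-tailed tags together, 50.0% in CHIR99021 and 70.2% in BIO ended in an added T. With added 3′ bases counted the log2 ratio turned to −0.15 and the call was lost, so its direction depends on which tags are counted.

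**Figure D4:**
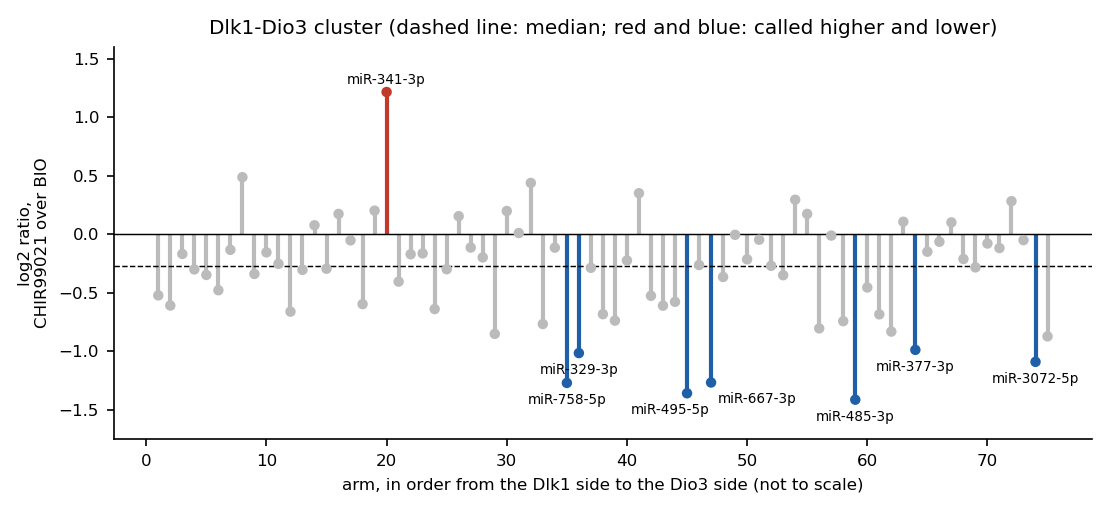
Log2 ratio of CHIR99021 over BIO (y axis) for the 75 arms of the Dlk1-Dio3 cluster, in their order from the Dlk1 side to the Dio3 side (x axis, not to scale). Most bars point down, with 60 of 75 below 0, the 7 lower calls are blue and miR-341-3p, the higher call, is red, and the dashed line is the median of −0.27.

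A second imprinted group, in the Sfmbt2 intron on chromosome 2, has many near-identical copies, so tags were split evenly among matching arms and single members are uncertain. It summed to 19381 CPM in CHIR99021 and 23531 CPM in BIO, against 18634.5 in DMSO and 17021 in ddH2O, so CHIR99021 was nearer the vehicles. Of 28 arms compared 23 lay below 0 (82.1%, against 53.9% of all arms), and the median was −0.24. Of the 28, 2 were called lower (7.14%, against 6.47% of all arms) and 0 higher. The share of lower calls was thus near that over all arms. Its main arm, miR-669c-5p, had 17232 CPM in CHIR99021 and 20686 CPM in BIO.

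An X-linked group around miR-741, known from male germ cells, had the lowest median of the lists with 3 or more arms. All 8 arms compared lay below 0, 3 were called lower (37.5%, against 6.47% of all arms), and the median was −0.91. Of the 28 arms of the group with tags only these 8 reached 10 CPM. MiR-741-3p and miR-465a-5p did so in BIO but not in CHIR99021, so the minimum bears on these figures. Without a minimum the median was −0.63 and no longer the lowest, with −0.82 for the miR-302 cluster. MiR-741-3p had 3.50 CPM in CHIR99021 and 12.9 CPM in BIO, from 5 and 27 tags, and miR-465a-5p had 4.90 CPM in CHIR99021 and 13.8 CPM in BIO, from 7 and 29. The group summed to 211 CPM in CHIR99021 and 300 CPM in BIO, against 286 in DMSO and 384 in ddH2O, so these are low levels throughout and CHIR99021 was the lowest of these 4.

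The cell cycle clusters differed little in sum. The miR-17-92 arms summed to 14329 CPM in CHIR99021 and 12357 CPM in BIO, against 18416 in DMSO and 18824 in ddH2O, and 0 of 10 arms were called. The 6 arms with the miR-17 seed AAAGUGC all lay above 0, with a median of 0.23, as did the 6 arms with the miR-15/16 seed AGCAGCA, with a median of 0.26, but scaled to all deposited tags the medians of the miR-17-92 and miR-15/16 lists are −0.43 and −0.41. MiR-16-5p had 2828 CPM in CHIR99021 and 2295 CPM in BIO. On the same list miR-503-5p and miR-322-3p were lower in CHIR99021 without a call. MiR-503-5p had 888 CPM in CHIR99021 and 1483 CPM in BIO, and miR-322-3p 275 CPM in CHIR99021 and 471 CPM in BIO. Of the 12 miR-15/16 arms compared 9 lay above 0 and 3 below, and the list summed to 5641 CPM in CHIR99021 and 5697 CPM in BIO. The miR-183 cluster, expressed in sensory cells and in stem cells, had 6 of 6 arms above 0 with a median of 0.35. Its 1 call (16.7% of its arms, against 7.31% of all arms called higher) was miR-182-3p, at 36.4 CPM in CHIR99021 and 16.7 CPM in BIO. The median of this cluster too is negative, −0.30, when scaled to all deposited tags.

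Among microRNAs with Drosha-independent processing 0 of 8 arms were called, and the median was −0.56, or 0.30 among arms at 100 CPM or more. The abundant miR-320-3p had 35612 CPM in CHIR99021 and 29214 CPM in BIO, against 33706 in DMSO and 21627 in ddH2O. MiR-877-5p had 618 CPM in CHIR99021 and 977 CPM in BIO, and miR-3102-3p 53.9 CPM in CHIR99021 and 95.3 CPM in BIO. The list sum was 1.20-fold higher in CHIR99021 than in BIO, carried by miR-320-3p, so the sum and the median differ in sign.

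The hypoxia-induced miR-210 showed a gap between its arms. MiR-210-5p had 12.6 CPM in CHIR99021 and 55.2 CPM in BIO, against 70.1 in DMSO and 92.6 in ddH2O, and was 4.38-fold lower in CHIR99021 than in BIO (2.66 to 7.66). MiR-210-3p, the main arm, had 736 CPM in CHIR99021 and 958 CPM in BIO, against 895 in DMSO and 2634 in ddH2O, and was not called. CHIR99021 was the lowest of these 4 libraries for both arms.

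The arms of a hairpin start from the same precursor, so their ratios can be set side by side. Over 116 hairpins with both arms at 10 CPM or more, the 5p and 3p log2 ratios had a Pearson r of 0.56 and a Spearman rho of 0.52, in the same pair of libraries, and an r of 0.47 without Mir211. The arms lay within 2-fold of each other for 101 hairpins. Of 24 hairpins with a called arm, 4 had both arms called the same way: Mir211 and Mir6240 higher, and Mir92b and Mir219a-2 lower. At 100 CPM or more for both arms, 40 hairpins had an r of 0.66 and a rho of 0.55. Mir6240, whose tags may not all be microRNA, had the highest ratios of this set for both arms, and Mir211 was not in it.

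**Figure D5:**
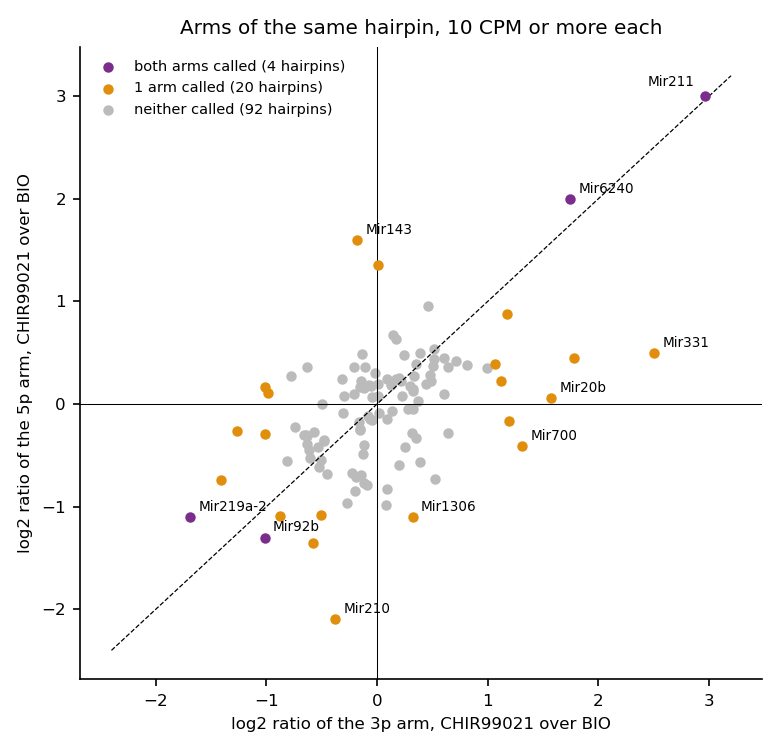
Log2 ratio of CHIR99021 over BIO for the 5p arm (y axis) and the 3p arm (x axis) of 116 hairpins with both arms at 10 CPM or more. Points on the dashed line have equal ratios; the 4 hairpins with both arms called lie near it, and Mir331, Mir143, Mir210 and Mir700 lie far from it.

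The hairpins with the widest gaps were Mir331, Mir143, Mir210 and Mir700. MiR-143-5p, from a locus active in smooth muscle and fibroblasts, had 130 tags in CHIR99021 and 63 in BIO, and per library its level was 3.03-fold higher in CHIR99021 (2.23 to 4.17), a call, while the main arm miR-143-3p had 656 CPM in CHIR99021 and 744 CPM in BIO. MiR-700-3p had 61.6 CPM in CHIR99021 and 24.8 CPM in BIO, and miR-700-5p had 21.7 CPM in CHIR99021 and 29.1 CPM in BIO. In each of Mir331, Mir143, Mir210 and Mir700 a single arm of the hairpin was called, which for Mir700 was miR-700-3p.

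Of the 10 most abundant arms, 9 lay within 1.5-fold in CHIR99021 and BIO. MiR-140-3p had 84034 CPM in CHIR99021 and 83647 CPM in BIO, and miR-103-3p 51676 CPM in CHIR99021 and 50516 CPM in BIO. The other was miR-423-5p, from an intron of Nsrp1, with 25134 CPM in CHIR99021 and 44485 CPM in BIO, against 37498 in DMSO and 23952 in ddH2O. It was 1.77-fold lower in CHIR99021 than in BIO (1.75 to 1.79), under the 2-fold limit, with BIO above both vehicles and CHIR99021 between them.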

How the data were processed

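Small RNA of 6 libraries was analysed from the deposited counts, whole-number counts of each distinct read sequence (tag) of 18 to 44 bases with no normalization. The submitters' processing notes name the build mm9, and the aligner and adapter steps are not given in the sources used here. Tags of 18 to 26 bases were matched exactly to the 1174 mouse hairpins with a Mir symbol among 2202 microRNA transcripts of GENCODE M21, and the coordinates given come from this match to GRCm38. An arm is the most abundant tag of the pooled libraries with a window of 2 bases around its start. Tags matching several arms were split evenly. Tags matching annotated ribosomal RNA, mitochondrial rRNA or tRNA, snoRNA, scaRNA or snRNA genes, or the gene Gm42418, were left out. Nuclear tRNA and, beyond these genes, nuclear large-subunit ribosomal RNA were not searched. Arms with identical most abundant tags were merged (74), and 940 arms were named from RefSeq mature sequences.

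Counts were scaled to microRNA tags (CPM), and ratios carry 95% exact intervals, with a pseudocount of 0.5 for log2 ratios. With 1 library a group there is no replicate check. The rule for arms named in the text was up to 15 called arms in each direction at 100 CPM or more, the 10 most abundant arms and up to 4 of each of 26 lists; other arms are said to be chosen after their values were seen, or stand in a group or hairpin that is described. Members and lists were chosen with earlier results of these data known. The rule for calls and the coverage of the intervals were tested on simulated counts, and the matching and splitting of tags were not simulated. Python 3.11.15, scipy 1.17.1, pandas 2.3.3, numpy 2.4.6 and matplotlib 3.10.9 were used, with R 4.3.3, edgeR 4.0.16 for TMM factors and DESeq2 1.42.0 for median-of-ratios factors, which served for scaling only. Alternatives changed the scaling, the minimum, the tags counted and their lengths.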

Additional observations from a re-analysis of the deposited data

Results flagged for a closer look

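Tags that match a microRNA except for a C in place of an A at base 22, counted from 1 at the 5′ end of the tag (A22C), lie outside the exact counts used above. Only variants of the 712 exact tags that match 1 arm and have 500 or more counts over the 6 libraries entered these shares. Of such tags with an A or this C at base 22 they were 4.07% in the CHIR99021 library (9785 tags, interval 3.99 to 4.15%) and 0.0880% in the BIO library (308 tags, 0.0784 to 0.0983%), against 0.0923% in DMSO and 0.0661% in ddH2O. The same change at base 24 (A24C) stood at 3.55% in CHIR99021 and 0.419% in BIO, and at base 23 (A23C) at 0.124% in CHIR99021 and 0.104% in BIO. At base 25 (A25C) it stood at 6.13% in CHIR99021 and 0.717% in BIO, from fewer tags. Where a tag ends at base 22, A22C reads the same as a shorter tag with an added C. Single added C ends were 0.602 per 100 exact tags in CHIR99021 and 0.156 in BIO. With A22C tags counted, an alternative chosen after the data were seen, 34 arms were called higher and 32 lower in CHIR99021 than in BIO.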

How the results depend on the processing

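With 479 arms compared, 35 were called higher and 31 lower in CHIR99021 than in BIO. Scaling to all deposited tags gave 8 higher and 143 lower, and turned the medians of 11 lists, the miR-290 cluster among them, from positive to negative. A minimum of 100 CPM gave 11 higher and 10 lower among 244 arms, fewer arms being compared. Tags of 22 to 24 bases gave 16 higher and 21 lower. Arms with a most abundant tag of 21 bases or more, an alternative chosen after the data were seen, gave 22 higher and 30 lower. The other alternatives gave 25 to 43 higher and 26 to 36 lower. The log2 ratio of miR-341-3p turned to −0.15 with untemplated 3′ ends counted and to −0.15 with tags of 22 to 24 bases, and the cause was not tested. That length held 5.03% of its tags in CHIR99021 and 13.7% in BIO. Of the 21 called arms at 100 CPM or more, 21 kept their call under TMM scaling, and scaling to all deposited tags ended 6 calls, those of miR-6236-5p, miR-10a-5p, miR-690, miR-3470b, miR-378c and miR-341-3p, at log2 ratios of 0.49 to 0.85. Several arms near the 2-fold limit crossed it with little change: miR-1a-3p stood at −0.998 under median-of-ratios scaling and −0.98 with tags of 20 to 26 bases, miR-329-3p at −0.99 with tags of 20 to 26 bases, −0.93 with tags of 22 to 24 bases and −0.94 with its most abundant tag alone, miR-532-3p at −0.99 with tags of 20 to 26 bases and miR-3470b at 0.99. With untemplated ends miR-532-3p stood at −0.84. The length windows say nothing of arms whose tags they leave out: tags of 20 to 26 bases kept 4 of miR-6240 in CHIR99021 and 3 in BIO, and tags of 22 to 24 bases kept under 10% of the tags in at least 1 library for 7 of the 10 calls not kept, miR-331-3p and miR-758-5p among them. No paired analysis was possible because each group is 1 library. Compound and dose cannot be told apart, 1 library a side gives no replicate error, and arms below about 10 CPM rest on few tags.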
